A study of Mus musculus with 196 samples.

Results

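Mouse tail skins were compared at the 2 ends of a ranking by keratinocyte stress genes. The arrays were chosen by a ranking of all 97 tail arrays of the series on the mean log2 value of Sprr2d, Stfa1, Stfa3 and Il1f6, here called the score. The 24 arrays with the highest score are called high-score tails and the 24 with the lowest are called low-score tails, 48 of 196 arrays in all. The other 49 tails lie between them. The mice were 8 weeks old and untreated, and came from a backcross in which F1 females (FVB/N mothers, Mus spretus fathers) were mated to FVB/N males. Every animal in either group is a genetically different individual of the same cross, with no allele or agent that sets one group apart by design. Tail skin and shaved dorsal skin were snap frozen, and 1 ug of total RNA per sample was labelled with biotin for an Affymetrix array. The high-score tails came from 13 females and 11 males, and the low-score tails also from 13 females and 11 males. All 48 tails carried the batch label 4, and all 48 mice also had a dorsal skin array. Values are log2 expression, so a difference of 1 is a doubling of signal. The sample is whole skin, in which fewer cells of a type and less RNA per cell cannot be told apart. Because each array is a separate mouse, the spread given is between mice.

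Small proline-rich proteins such as Sprr2d are cross-linked into the cornified envelope, the protein shell of the outermost epidermal cells. Stefins such as Stfa1 and Stfa3 are intracellular inhibitors of cysteine proteases. Il1f6, now named Il36a, is a cytokine of the IL-36 branch of the interleukin 1 family that epidermal cells make and that acts on keratinocytes and immune cells. They are known to be raised in wounded, irritated or psoriasis-like epidermis, together with the keratins 6 and 16, the S100 proteins A8 and A9 and antimicrobial defensins.

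The start regions of 6 genes are shown because the ranking (Sprr2d, Stfa1, Stfa3) and 3 of the 4 largest differences (Defb3, S100a8, S100a9) turn on them. Those of Il1f6 and Krt6b are not shown. Each sequence is the 250 bases before the start site in RefSeq's annotation of GRCm38.p6, read 5′ to 3′ on the gene's own strand. Capitals mark matches to 3 motifs. These are the AP-1 motif TGANTCA and the C/EBP motif TTGCNNAA, searched on both strands, and the TATA box TATAAA, searched on the gene's strand. No marked matches overlap. The regions are chr3:92338890-92339139 (plus strand) for Sprr2d, chr16:36276898-36277147 (plus) for Stfa1, chr16:36455393-36455642 (minus) for Stfa3, chr8:19293111-19293360 (plus) for Defb3, chr3:90668821-90669070 (plus) for S100a8 and chr3:90695722-90695971 (minus) for S100a9.
Sprr2d: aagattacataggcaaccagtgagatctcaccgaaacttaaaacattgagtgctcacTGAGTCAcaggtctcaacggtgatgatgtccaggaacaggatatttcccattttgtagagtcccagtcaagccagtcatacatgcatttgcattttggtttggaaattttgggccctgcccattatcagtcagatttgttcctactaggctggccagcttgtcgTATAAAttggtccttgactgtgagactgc
Stfa1: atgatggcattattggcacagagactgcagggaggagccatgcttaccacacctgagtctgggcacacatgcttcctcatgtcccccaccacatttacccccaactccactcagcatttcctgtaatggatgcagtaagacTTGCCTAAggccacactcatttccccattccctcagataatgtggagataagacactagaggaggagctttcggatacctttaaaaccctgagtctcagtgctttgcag
Stfa3: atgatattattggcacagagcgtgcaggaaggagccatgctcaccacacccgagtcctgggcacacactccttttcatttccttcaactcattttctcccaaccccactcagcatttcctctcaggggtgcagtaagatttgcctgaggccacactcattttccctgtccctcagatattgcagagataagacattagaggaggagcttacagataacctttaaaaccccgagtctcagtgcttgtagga
Defb3: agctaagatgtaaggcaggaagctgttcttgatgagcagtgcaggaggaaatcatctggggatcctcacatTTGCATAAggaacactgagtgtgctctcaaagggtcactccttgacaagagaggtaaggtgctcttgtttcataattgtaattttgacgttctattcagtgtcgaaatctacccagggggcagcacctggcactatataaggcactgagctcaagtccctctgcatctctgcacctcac
S100a8: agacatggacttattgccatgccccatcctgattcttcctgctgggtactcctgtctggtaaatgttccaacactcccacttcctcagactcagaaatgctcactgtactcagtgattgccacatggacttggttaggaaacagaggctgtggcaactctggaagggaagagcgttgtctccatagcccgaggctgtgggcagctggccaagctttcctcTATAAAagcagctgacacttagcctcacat
S100a9: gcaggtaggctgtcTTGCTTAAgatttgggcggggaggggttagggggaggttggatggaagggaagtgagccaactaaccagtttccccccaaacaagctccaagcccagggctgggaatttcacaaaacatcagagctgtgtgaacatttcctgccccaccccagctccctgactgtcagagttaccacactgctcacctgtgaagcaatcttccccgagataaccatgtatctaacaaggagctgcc

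Stfa1 and Stfa3 lie on the same chromosome and share 83.4% of 259 aligned positions in these windows. The Sprr2d window held an AP-1 match and a TATA box, starting 193 and 29 bases before the start site. The Stfa1 window held a C/EBP match 109 bases before the start, and the Stfa3 window held none of the 3. Defb3 and S100a9 had a C/EBP match 179 and 236 bases before their starts, and S100a8 had a TATA box 30 bases before its start. Of the 226 genes higher in the high-score tails (given next), 183 had a window. In these, 17.5% held the C/EBP motif, against 8.81% of 14739 windows of measured genes. The AP-1 motif was in 13.1% of the same 183 windows, against 5.92%. The TATA box was in 11.5% of them, against 7.44%. Among the 104 windows of genes lower in the high-score tails, 13.5% held the C/EBP motif, 6.73% the AP-1 motif and 8.65% the TATA box. Over all 32851 windows of the table the shares were 9.56%, 6.75% and 7.59% for C/EBP, AP-1 and TATA. These shares describe letters in a window, not binding.

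The score ran from 9.70 to 10.45 in the high-score tails, with a median of 9.996, and from 8.11 to 8.91 in the low-score tails, with a median of 8.68. The cuts fell in a continuous range. The last tail inside the high-score group scored 9.697 and the next one outside it 9.696, and the corresponding values at the low end were 8.911 inside and 8.925 outside. The 4 ranking genes chose the tails, so their values are given as a description with no test. Sprr2d ran from 10.31 to 11.57 (median 10.97) in high-score tails and from 8.74 to 10.17 (median 9.37) in low-score tails. It was the only one of the 4 whose groups did not overlap. Il1f6 had a lowest value of 10.13, a median of 10.81 and a highest of 11.40 in high-score tails, against 8.54, 9.33 and 10.37 in low-score tails. Stfa3 spanned 8.34 to 10.72 (median 9.97) in high-score tails and 7.09 to 9.56 (median 8.45) in low-score tails. Stfa1 differed least, from a lowest of 7.45 to a highest of 9.15 (median 8.46) in high-score tails, against 6.77 to 8.16 (median 7.38) in low-score tails. Means differed by 1.63 for Sprr2d, 1.49 for Stfa3, 1.48 for Il1f6 and 0.87 for Stfa1. The 4 genes did not carry equal shares of the ranking. Across the 97 tails the Pearson correlation was 0.75 between Sprr2d and Il1f6, 0.58 between the 2 stefins and 0.41 between Stfa1 and Il1f6, all measured on the same arrays.

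**Figure D1:**
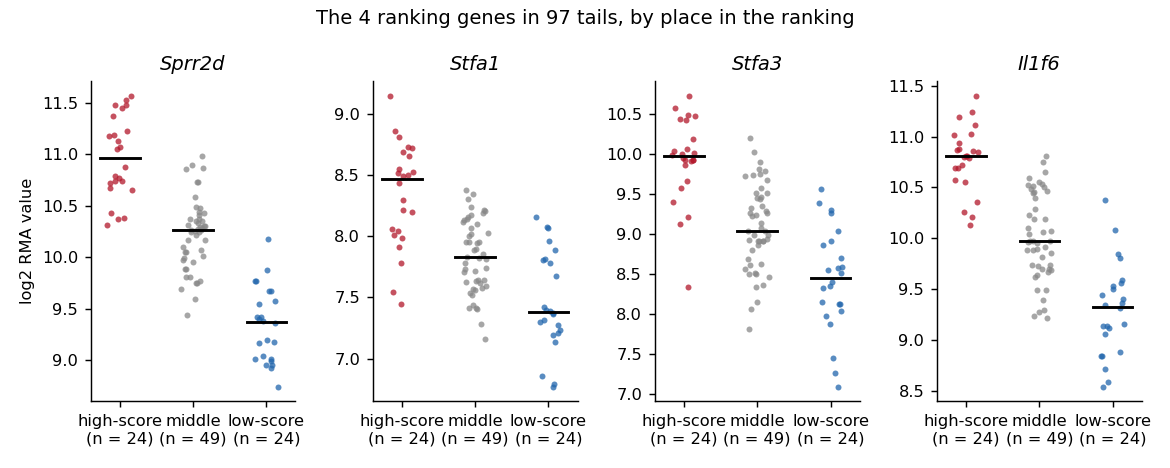
Log2 RMA values of Sprr2d, Stfa1, Stfa3 and Il1f6 in each of 97 tails (points), split into high-score, middle and low-score tails; black bars are medians. Sprr2d is the gene whose high-score (lowest 10.31) and low-score (highest 10.17) tails do not overlap.

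The groups held the same number of each sex. The hair cycle label of the same mouse's back was less even. Dorsal skin was labelled as anagen, the phase in which hair grows, in 7 of the 24 mice with high-score tails and in 1 of the 24 mice with low-score tails. The odds ratio was 9.47 (Fisher's exact test, two-sided, p = 0.0479, or 0.0958 after Benjamini-Hochberg adjustment over the 2 labels tested). With the 32 highest and 32 lowest tails the counts were 9 and 1, and the adjusted p was 0.0254. The hair cycle of the tail itself was not labelled. Array medians were 5.82 to 6.03 in high-score tails and 5.83 to 6.03 in low-score tails. Some tails stood apart from the rest, with a correlation to the median tail profile as low as 0.984 in the high-score tails and 0.971 in the low-score tails, against medians of 0.993 and 0.994. Defining keratinocyte keratins were high in both groups, with Krt5 at 12.33 in high-score and 12.42 in low-score tails and Krt10 at 12.58 in high-score and 12.62 in low-score tails. In what follows a difference is high-score minus low-score tails, fitted with limma with sex as a covariate, and a gene is called at a Benjamini-Hochberg adjusted p under 0.05 over 18816 genes. The fit leaves out the 4 ranking genes. It asks which other genes differed in the same tails, so a call describes variation shared with the ranking genes and not the effect of a treatment.

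Apart from the ranking genes, 226 genes were higher in the high-score tails, or 1.2% of those tested, and 127 were lower, or 0.675%. These are the shares to set beside the count of each gene list below, where a short list can hold no call. With a difference of at least 0.5 required, 55 were higher (0.292%) and 4 were lower (0.0213%). The large differences were thus nearly all upward. The balance of the smaller ones depended on scaling. With every array shifted to the same median, 158 genes were higher and 284 lower, so the share called higher was 35.7% in place of 64.0%. Quantile normalization gave 219 and 252, or 46.5% higher. The median difference over all genes was -0.01 as deposited and -0.05 after the shift. Without the mice whose dorsal skin was in anagen, 138 genes were called higher and 99 lower, with 17 high-score and 23 low-score tails left, and 40 of the 54 called genes named here were still called. Those not called were Avpr1a, Blnk, Ccl20, Cers3, Epgn, Ereg, Gata3, Gldc, Il1f8, Lce3a, Slc7a11, Sprr2i, Tgm1 and Tgm3, all described further on. Ranked without Sprr2d, the tails gave 115 higher and 39 lower genes, and 34 of the 54 were still called. Without the 5 tails of the groups least like the median tail (2 high-score, 3 low-score), 210 genes were higher and 178 lower.

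**Figure D2:**
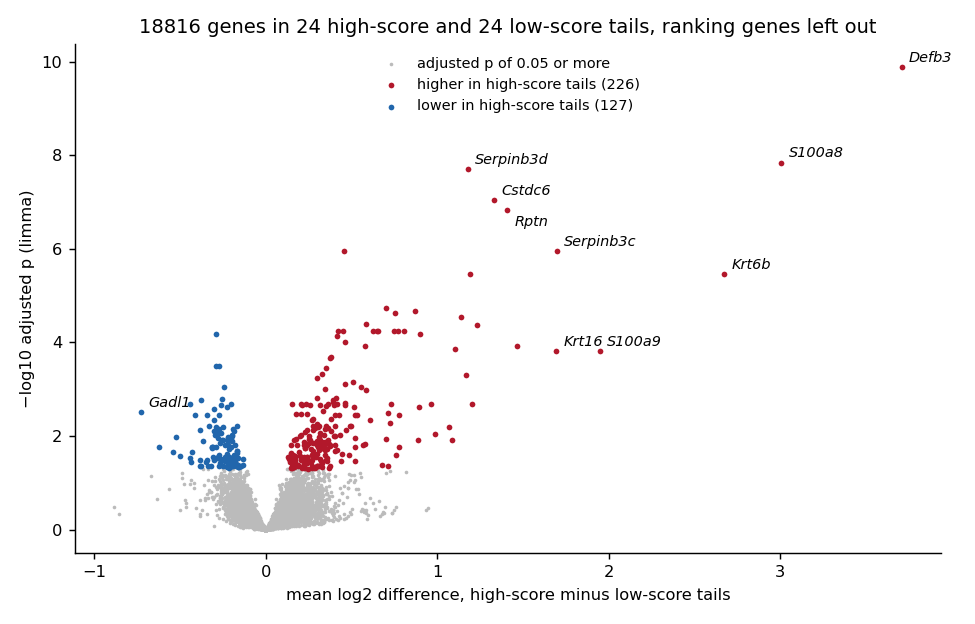
Mean log2 difference between 24 high-score and 24 low-score tails (x axis) against −log10 of limma's adjusted p (y axis) for 18816 genes. Red points are the 226 genes higher and blue points the 127 genes lower in the high-score tails; Defb3, S100a8 and Krt6b lie farthest to the right and no lower gene falls by as much as 1.

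Antimicrobial and alarm proteins held the largest differences. Defb3, a beta-defensin that kills microbes at epithelial surfaces, was between 5.59 and 12.31 (median 9.90) in high-score tails and between 4.70 and 7.52 (median 5.67) in low-score tails. Of the 24 high-score tails, 22 exceeded the highest low-score tail. The difference was 3.71 (SE 0.34, adjusted p = 1.31e-10), a 13.1-fold higher mean signal. S100a8, a calcium-binding alarmin of stressed keratinocytes and myeloid cells, ran from 5.32 to 11.36 (median 8.28) in high-score tails and from 4.26 to 7.08 (median 4.97) in low-score tails. It was 3.01 higher (SE 0.32, adjusted p = 1.43e-08), and 17 high-score tails exceeded every low-score tail. Its partner S100a9 was between 5.52 and 11.29 (median 8.09) in high-score tails and between 5.02 and 8.19 (median 6.06) in low-score tails, 1.95 higher (SE 0.33, adjusted p = 1.52e-04). In both genes the lowest of the high-score tails lay within the range of the low-score tails. Lcn2, which binds bacterial siderophores, was 7.96 ± 1.02 in high-score and 6.89 ± 0.62 in low-score tails (SD, n = 24 each; limma adjusted p = 0.0063). Of 17 measured alarmins and antimicrobial genes 5 were higher, against 1.2% of all genes, and none lower. Their median difference was 0.32, against -0.01 over all genes. Defb14 was the fifth, 0.76 higher (adjusted p = 2.38e-05). Camp, the cathelicidin, was at 4.63 in high-score and 4.66 in low-score tails, and Ptgs2, a prostaglandin synthase, at 6.43 and 6.19 (adjusted p = 0.894 and 0.462).

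S100a8, S100a9 and Lcn2 are also made by neutrophils. Of 11 measured neutrophil markers none was called in either direction, with a median difference of 0.00. Their mean level per tail was between 4.43 and 5.22 in the high-score tails and between 4.202 and 4.93 in the low-score tails. The granule proteins Mpo, Elane, Ngp and Ltf had means of 4.46, 4.23, 4.04 and 3.80 in high-score tails and 4.65, 4.33, 4.08 and 3.95 in low-score tails, all at the low end of the range measured. Of the 11 markers 5 had a difference above 0, namely Cxcr2, Csf3r, Retnlg, Clec4d and Mmp9. In high-score tails the means of Csf3r, Retnlg, Clec4d and Mmp9 were 4.64, 4.39, 5.0 and 5.54. In low-score tails they were 4.44, 4.16, 4.81 and 5.42. Cxcr2, a chemokine receptor of neutrophils and other cells, had the largest difference among the 11 markers, with 7.47 ± 0.70 in high-score and 6.75 ± 0.79 in low-score tails (SD, n = 24 each; limma adjusted p = 0.0548). It stayed uncalled in 15 of 20 alternative fits, with limma adjusted p from 0.0104 to 0.704 across them. None of 12 T cell markers was called, with a median of 0.08, and none of 18 macrophage and dendritic cell markers, with a median of 0.09. The smallest limma adjusted p of the latter was 0.0568. In them 1 gene was called higher after the shift to a common median, and 1 without the mice in anagen. As 1.2% of all genes were called higher and 0.675% lower, lists this short can hold no call at those shares. Of 7 B cell markers, Blnk, a signalling adaptor, was higher by 0.41 (adjusted p = 0.0213), a call lost without the mice in anagen.

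Among keratins, 2 of 8 stress keratins were called higher, against 1.2% of all genes, and none lower. Krt6b, a type II keratin induced by wounding, ran from 6.36 to 12.28 (median 9.25) in high-score tails and from 5.69 to 8.33 (median 6.58) in low-score tails. The difference was 2.68 (SE 0.36, adjusted p = 3.44e-06), and 18 high-score tails exceeded every low-score tail. Its type I companion Krt16 was between 6.16 and 11.72 (median 8.91) in high-score tails and between 6.07 and 8.74 (median 7.27) in low-score tails, 1.69 higher (SE 0.28, adjusted p = 1.52e-04). The other 6 stress keratins did not pass the test. Krt6a was at 8.79 ± 0.45 in high-score and 8.55 ± 0.39 in low-score tails (SD, n = 24 each; limma adjusted p = 0.313), and Krt17 at 11.48 in high-score and 11.53 in low-score tails (adjusted p = 0.695). Probes of Krt6a and Krt6b may share sequence, as the genes are close relatives. None of 12 basal and suprabasal keratins was called. Their median difference was -0.07, with Krt15 at 10.04 in high-score and 10.32 in low-score tails (adjusted p = 0.121) and Krt78 at 8.38 in high-score and 8.07 in low-score tails (adjusted p = 0.062).

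Relatives of the ranking genes shared the direction in part. Of 12 measured small proline-rich proteins outside the ranking, 6 were higher, against 1.2% of all genes, and none lower, with a median of 0.38. Sprr2e was 6.16 ± 0.83 in high-score and 5.06 ± 0.42 in low-score tails (SD, n = 24 each), 1.10 higher (limma adjusted p = 1.37e-04), and Sprr1b was 0.75 higher (adjusted p = 5.67e-05). Sprr2i and Sprr2g were higher by 0.58 and 0.52 at low levels, under 5 in both groups. The abundant Sprr1a was at 11.70 in high-score and 11.68 in low-score tails, and Sprr2b at 11.92 and 11.75 (adjusted p = 0.926 and 0.168). Of 7 measured stefins and cystatins, 3 were higher, against the same 1.2%, and none lower, with a median of 0.21. Cstdc6, a cystatin domain gene, was 5.52 ± 0.51 in high-score and 4.19 ± 0.59 in low-score tails (SD, n = 24 each), 1.33 higher (limma adjusted p = 9.15e-08). Csta1, a cystatin A gene, and Cstb, or stefin B, were higher by 0.37 and 0.24. The secreted cystatins Cst3 and Cst6 were not called (adjusted p = 0.681 and 0.196). The Sprr2 and stefin families hold close copies, so signal of the ranking genes on probes of these members cannot be told apart from their own, and these counts are not independent of the ranking.

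Of 13 measured members of the interleukin 1 and IL-36 family, 4 were higher, by under 0.5 each, and none lower. Over all genes 1.2% were higher. Il1rn, the antagonist of the IL-1 receptor, was 8.38 ± 0.28 in high-score and 7.91 ± 0.25 in low-score tails (SD, n = 24 each), 0.46 higher (limma adjusted p = 9.79e-05). Il1f9, or IL-36 gamma, was 0.42 higher (adjusted p = 7.14e-05) and Il1f5, the IL-36 receptor antagonist, was 0.33 higher (adjusted p = 4.80e-04). Il1f8, or IL-36 beta, was 0.29 higher (adjusted p = 0.0482), a call that was lost after the shift to a common median. Both agonists and antagonists were among the called genes. Il1rl2, the receptor chain that binds the IL-36 cytokines, was at 9.52 in high-score and 9.57 in low-score tails (adjusted p = 0.732), and Il1a, the keratinocyte alarmin, at 8.48 and 8.40 (adjusted p = 0.765). Of 21 genes of the IL-17, IL-22 and IL-23 axis 1 was called, Zc3h12a, which encodes an RNase that degrades inflammatory mRNAs. It was 7.72 ± 0.52 in high-score and 6.95 ± 0.31 in low-score tails (SD, n = 24 each; limma adjusted p = 5.63e-05). Of 14 keratinocyte chemokines and cytokines 1 was called. Ccl20, which attracts CCR6-bearing lymphocytes and dendritic cells, was 0.76 higher (adjusted p = 0.025), and this call was lost without the mice in anagen. Of 12 EGF ligands and receptors, the ligands Epgn and Ereg were higher by 0.52 and 0.41 (adjusted p = 0.0173 and 0.0201), both likewise lost without those mice, and no receptor was called.

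Serine protease inhibitors and kallikreins formed the largest group of calls. Of 24 measured members 11 were higher (45.8%, against 1.2% of all genes) and none lower, with a median of 0.31. Serpinb3c ran from 6.29 to 10.09 (median 8.28) in high-score tails and from 5.36 to 7.85 (median 6.67) in low-score tails, 1.70 higher (SE 0.22, adjusted p = 1.12e-06). Serpinb3d ran from 10.41 to 11.82 (median 11.35) in high-score tails and from 9.12 to 11.07 (median 10.15) in low-score tails, 1.18 higher (SE 0.13, adjusted p = 1.99e-08). In both genes 16 of 24 high-score tails exceeded every low-score tail. These are mouse relatives of human squamous cell carcinoma antigen, a serpin of squamous epithelia, and as close copies they may share probe signal. The membrane protease Tmprss11a was between 5.03 and 8.50 in high-score tails and between 4.64 and 6.45 in low-score tails, 1.17 higher (adjusted p = 5.03e-04). The kallikrein Klk13 was 0.90 higher (adjusted p = 6.68e-05). Wfdc12, a secreted protein of the whey acidic protein family of protease inhibitors, was between 5.97 and 9.60 (median 7.81) in high-score tails and between 5.06 and 8.36 (median 6.43) in low-score tails, 1.47 higher (adjusted p = 1.21e-04). Fetub, a cystatin-fold protein that inhibits astacin proteases, was 7.05 ± 1.04 in high-score and 5.85 ± 0.61 in low-score tails (SD, n = 24 each; limma adjusted p = 2.03e-03).

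Genes of terminal differentiation differed in selected members. Rptn, or repetin, an envelope precursor of the S100 fused family, was between 8.62 and 11.23 (median 9.65) in high-score tails and between 7.34 and 9.69 (median 8.37) in low-score tails. It was 1.41 higher (SE 0.17, adjusted p = 1.46e-07). Of 31 late envelope and filaggrin genes 6 were higher, against 1.2% of all genes, and none lower, with a median of 0.07. The late cornified envelope genes Lce3f, Lce3c and Lce3a, of a subgroup known for its induction in injured and psoriatic skin, were higher by 0.96, 0.89 and 0.68. Lce3f was at a low level, with means of 4.60 in high-score and 3.64 in low-score tails. Lce3b, of the same subgroup, was at 3.77 in both groups (limma adjusted p = 0.986). Lce3a lost its call after the shift (adjusted p = 0.0409 as deposited). Of 8 transglutaminases and peptidylarginine deiminases 3 were higher, against the same 1.2%. All 3 were transglutaminases, which cross-link the envelope. Tgm5 was 8.70 ± 0.37 in high-score and 8.11 ± 0.26 in low-score tails (SD, n = 24 each; limma adjusted p = 4.01e-05), Tgm3 was 0.29 higher and Tgm1 was 0.17 higher, the last of which lost its call after the shift. Of 20 barrier lipid enzymes, Alox8, a lipoxygenase of mouse skin, was 9.77 ± 0.63 in high-score and 8.54 ± 0.75 in low-score tails (SD, n = 24 each), 1.23 higher (limma adjusted p = 4.21e-05). Cers3, the ceramide synthase of the epidermal barrier, was 0.25 higher (adjusted p = 9.87e-03). Of 15 NRF2 and oxidative stress genes, the cystine transporter Slc7a11 and the sulfiredoxin Srxn1 were higher by 0.52 and 0.22 (adjusted p = 0.034 and 0.0155).

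**Figure D3:**
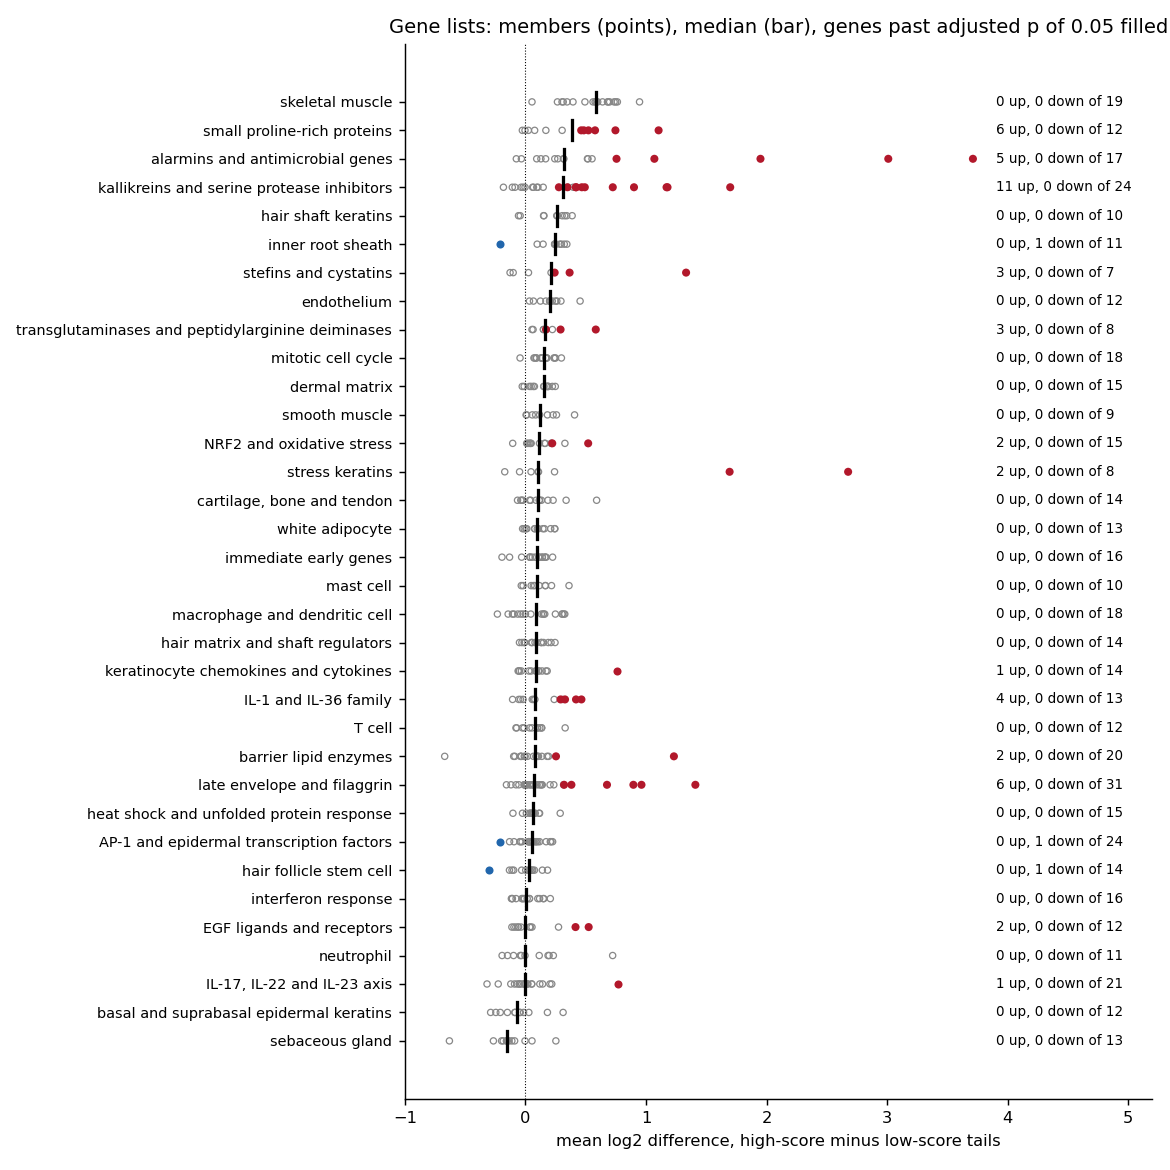
Log2 difference between 24 high-score and 24 low-score tails for the members of 34 of the gene lists (points), with the median as a black bar and the number of called genes at the right; the ranking genes are left out. Kallikreins and serine protease inhibitors have 11 called genes of 24, while skeletal muscle has the largest median, 0.59, with no called gene.

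Some lists that the name of the ranking could bring to mind were not called. None of 15 heat shock and unfolded protein response genes passed the test, with a median of 0.07 and 13 of them above 0. None of 18 mitotic genes passed it, with a median of 0.15 and 17 of them above 0. Mki67, a marker of cycling cells, was at 9.37 in high-score and 9.28 in low-score tails (limma adjusted p = 0.762). None of 16 interferon response genes and none of 16 immediate early genes was called, with 8 and 13 above 0. As 1.2% of all genes were called higher and 0.675% lower, lists this short can hold no call at those shares. Among 24 AP-1 and epidermal transcription factors 1 was called, Gata3, a regulator of epidermal barrier and inner root sheath differentiation, at 10.01 in high-score and 10.22 in low-score tails (adjusted p = 0.0323). Its call was lost without the mice in anagen and with the anagen label as a covariate.

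Skeletal muscle genes had the largest median difference of the lists, with none of them called. All 19 skeletal muscle genes had a difference above 0, the median was 0.59 and the smallest adjusted p was 0.322. In the 49 middle tails, fitted against the score, their median slope had the other sign, -0.599 per unit of score. The mean level of the list ran from 4.797 to 9.48 in high-score tails and from 4.86 to 7.501 in low-score tails. The 10 hair shaft keratins had a median of 0.26 and the 11 inner root sheath genes one of 0.24, with no hair shaft keratin called. Their median slopes in the middle tails were -0.245 for hair shaft and -0.081 for inner root sheath. Of the lists not given elsewhere (companion layer, hair matrix regulators, pigment synthesis, mast cell, smooth muscle, white adipocyte, dermal matrix, cartilage and tendon, Schwann cell, endothelium, blood, circadian clock and cholesterol synthesis) none had a called gene, and their medians lay between -0.12 and 0.20. Mean levels of the hair shaft list were 8.81 to 11.45 in high-score tails and 7.32 to 11.11 in low-score tails. The part of hair genes in the other results was not tested. With the mean of the muscle list as a covariate, 52 of the 54 called genes named here were called in the same direction.

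Genes lower in the high-score tails differed by less. The 4 largest among the genes named were Gadl1, Cyp2b23, Nptx1 and Cyp2b10. Gadl1, a decarboxylase of acidic amino acids, was between 5.18 and 7.73 (median 6.57) in high-score tails and between 6.04 and 7.87 (median 7.21) in low-score tails. It was 0.73 lower, with a fitted difference of -0.73 (SE 0.15, adjusted p = 3.07e-03). The cytochromes P450 Cyp2b23 and Cyp2b10, of a subfamily that oxidises steroids and foreign compounds, had differences of -0.62 and -0.52 (adjusted p = 0.0173 and 0.0103). As close copies they may share probe signal. Nptx1, a secreted pentraxin, had a difference of -0.54 (adjusted p = 0.0223). Slc43a1, a transporter of large neutral amino acids, ran from 5.73 to 7.61 in high-score tails and from 6.81 to 8.02 in low-score tails, and 12 of 24 high-score tails lay below every low-score tail (difference -0.50, adjusted p = 0.0266). Cers5, a ceramide synthase of chains shorter than those of Cers3, was 11.20 ± 0.36 in high-score and 11.61 ± 0.23 in low-score tails (SD, n = 24 each; limma adjusted p = 3.52e-03), with 11 high-score tails below every low-score tail. Bbox1, the last enzyme of carnitine synthesis, Gldc of glycine cleavage, the vasopressin receptor Avpr1a, the chromatin organiser Satb1, Papln of the extracellular matrix and B130006D01Rik had differences between -0.44 and -0.38. Col17a1, the hemidesmosomal collagen that anchors basal keratinocytes, was the only called gene of 14 on the hair follicle stem cell list, at 10.03 in high-score and 10.33 in low-score tails (adjusted p = 7.99e-03). None of 13 sebaceous gland genes was called, although 1 was called lower after the shift to a common median. Of these gland genes 2 had a difference above 0, and the median was -0.15. Awat2, a wax synthase of that gland, was at 6.87 ± 1.22 in high-score and 7.502 ± 0.93 in low-score tails (SD, n = 24 each; limma adjusted p = 0.224).

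The 49 middle tails took no part in the contrast. In them each gene was fitted against the score, and no gene was called (0.0% of 18816), while 1161 had an unadjusted p under 0.05 (6.17%). Of the 226 genes higher in the high-score tails, 185 (81.9%) had a positive slope in the middle tails, against 41.7% of all genes, and 46 had an unadjusted p under 0.05 (20.4%). Of the 127 lower genes, 16 (12.6%) had a positive slope. Slopes per unit of score were 2.23 for Defb3 (SE 0.67), 2.13 for S100a8 (SE 0.55), 1.71 for Krt6b and 1.66 for Serpinb3c. Rptn had a slope of 0.04, Lcn2 of -0.06 and Fetub of 0.01, although all were called between the groups. Among genes above the median level of all genes (6.56), those with the highest Pearson correlation to the score over the 49 middle tails were Kctd4 (0.49), Blmh (0.48), Defb6 (0.47), Gm10139, H1f2, Uchl3, Cdc123, Ube2n, H3f3a and Nop10 (0.43). Of these, Blmh, a cysteine protease that breaks down filaggrin peptides, was also higher in the high-score tails, by 0.34 (limma adjusted p = 2.98e-03). The most negative correlations were those of Trim2 (-0.56), Mcur1 (-0.51), Tmem63a, Inpp5k and Slc43a1 (-0.48). Trim2, Inpp5k and Slc43a1 were called lower between the groups as well. All these values share arrays and scaling with the score.

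Dorsal skin of the same 48 mice was not used in the ranking. Split by the group of the tail, it gave no called gene (0.0% of 18820) with limma, and 1739 genes had an unadjusted p under 0.05 (9.24%). The dorsal fit had sex, batch and the anagen label as covariates. Of the 226 genes higher in high-score tails, 136 (60.2%) had a dorsal difference above 0, against 46.8% of all genes. Of the 55 higher by at least 0.5 in tail it was 22 (40.0%), and of the 127 lower genes 38 (29.9%). Defb3 was between 4.57 and 5.99 (median 5.03) in dorsal skin of mice with high-score tails and between 4.22 and 6.91 (median 4.93) in that of mice with low-score tails. Krt6b had dorsal medians of 5.78 and 5.60, with 1 dorsal sample of a mouse with a high-score tail at 9.65. Serpinb3c had dorsal medians of 4.61 and 4.40 and Serpinb3d 4.89 and 4.59, below the median level of all genes. Many of these genes were thus among the dimmer ones in dorsal skin, where a difference can be hard to detect. S100a8 was not held to a narrow range there, with values from 4.15 to 7.91 for mice with high-score tails and 4.11 to 7.78 for mice with low-score tails, and its difference was 0.15 (SE 0.29, adjusted p = 0.89). Of the 4 ranking genes in dorsal skin, Il1f6 differed by 0.64 (SE 0.24, unadjusted p = 0.011, adjusted p = 0.462), Stfa1 by 0.32, Sprr2d by -0.04 and Stfa3 by -0.05. For Sprr2d and Stfa3 the sign rests on the covariates, since the plain dorsal means were 5.67 and 5.25 for mice with high-score tails, against 5.63 and 5.15 for mice with low-score tails (adjusted p = 0.955 and 0.958).

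**Figure D4:**
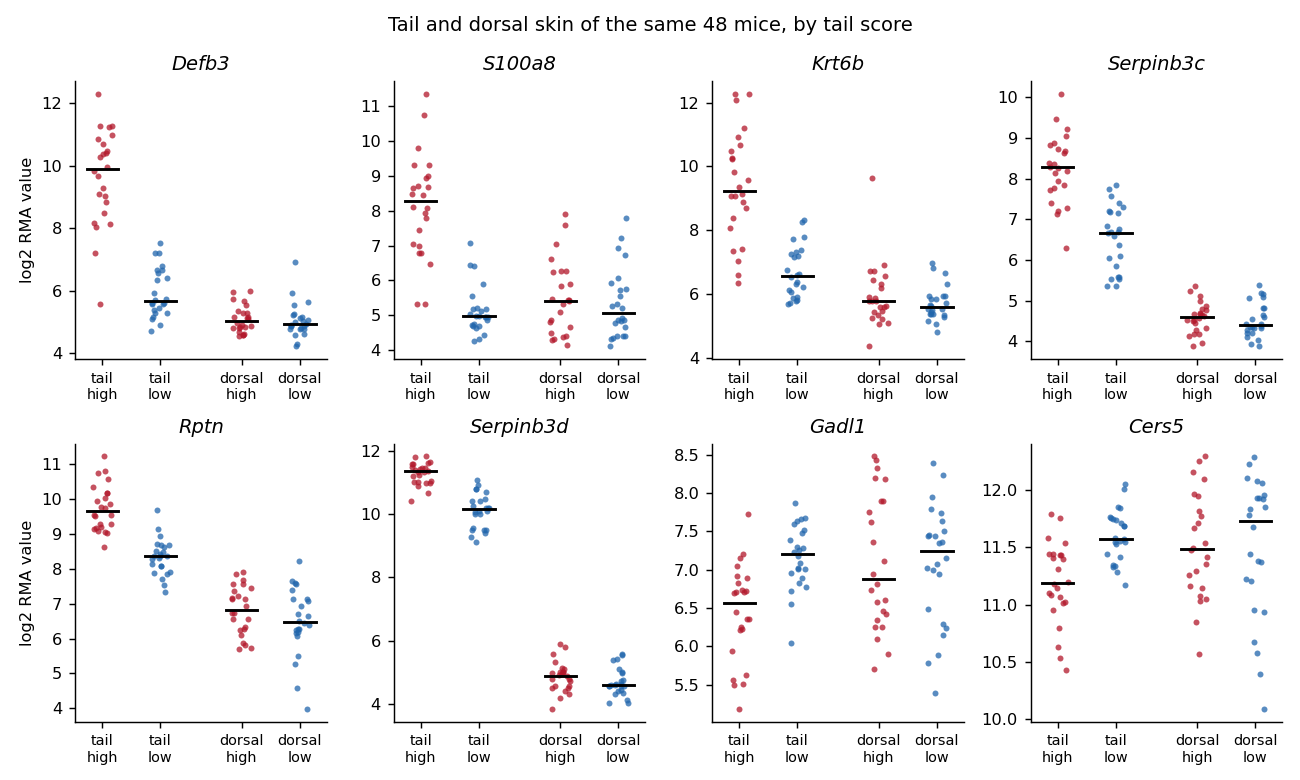
Log2 RMA values of 8 genes in the tails and in the dorsal skin of the same 48 mice, split by the tail's group (red high-score, blue low-score; 24 points each, black bars medians). Defb3 has medians of 9.90 and 5.67 in high-score and low-score tails, and 5.03 and 4.93 in the dorsal skin of those mice.

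The difference between the group effects in tail and in dorsal skin was itself tested. The fit had no term for the mouse, although each mouse gave both arrays. Called genes were 44 in this fit, 53 with the mouse as a replicate block and 40 as a paired difference within each mouse. For 40 genes (0.213%) the effect was larger in tail and for 4 (0.0213%) it was smaller, that is more negative. The groups were set on tail values and not on dorsal values. The ranking itself thus favours a larger effect in tail for genes that vary with the ranking genes there. The largest were Defb3, with an effect of 3.71 in tail and 0.02 in dorsal skin (difference 3.69, SE 0.39, limma adjusted p = 3.94e-11), S100a8 (2.86, adjusted p = 3.23e-05), Krt6b (2.45, adjusted p = 5.88e-04), S100a9 (1.88) and Krt16 (1.70). Alox8 had an effect of 1.23 in tail and -0.45 in dorsal skin (adjusted p of the difference = 2.38e-04). The 4 genes of the other sign were Ppm1k, Phc3, Zfp101 and Lonp2, with differences between -0.50 and -0.36. The call of Zfp101 was lost when tail and dorsal skin were paired within each mouse, and all 4 were lost without the mice in anagen. The first of them encodes a mitochondrial phosphatase of branched-chain amino acid breakdown, the second a Polycomb protein and the last a peroxisomal protease. Without the mice with anagen dorsal skin, 27 genes had a larger effect in tail and none a smaller one. Tail and dorsal arrays were in different batches, so tissue and batch cannot be told apart in these differences.

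Across the 82 mice with a tail array and a non-anagen dorsal array, the score of the tail and that of the dorsal skin had a Pearson r of 0.153 (permutation p = 0.167, two-sided) and a Spearman rho of 0.211 (permutation p = 0.0582). The rho was 0.218 (permutation p = 0.0494, unadjusted) after sex and batch were removed within each tissue, and 0.244 (permutation p = 0.0168, unadjusted) over all 96 mice, anagen included, while the r of both stayed above an unadjusted p of 0.05. This was the first of 5 relations, one for the score and one for each ranking gene. Il1f6 had the largest r of the 4 genes. Its r between tail and dorsal skin was 0.376 (permutation p = 3.9e-04, Benjamini-Hochberg adjusted 1.95e-03) and its rho 0.504 (permutation p = 1e-05, the smallest that 100000 permutations can give). Without the 2 mice farthest from the median of the tail, r was 0.377. After sex and batch were removed within each tissue r was 0.369, and in the 72 mice with batch 4 tails and batch 1 dorsal arrays it was 0.360. The r of Stfa1 was 0.199 (adjusted p = 0.185), that of Sprr2d 0.025 and that of Stfa3 0.026 (adjusted p = 0.825 each, all by permutation). Whether the r of Il1f6 differs from that of the other genes was not tested.

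**Figure D5:**
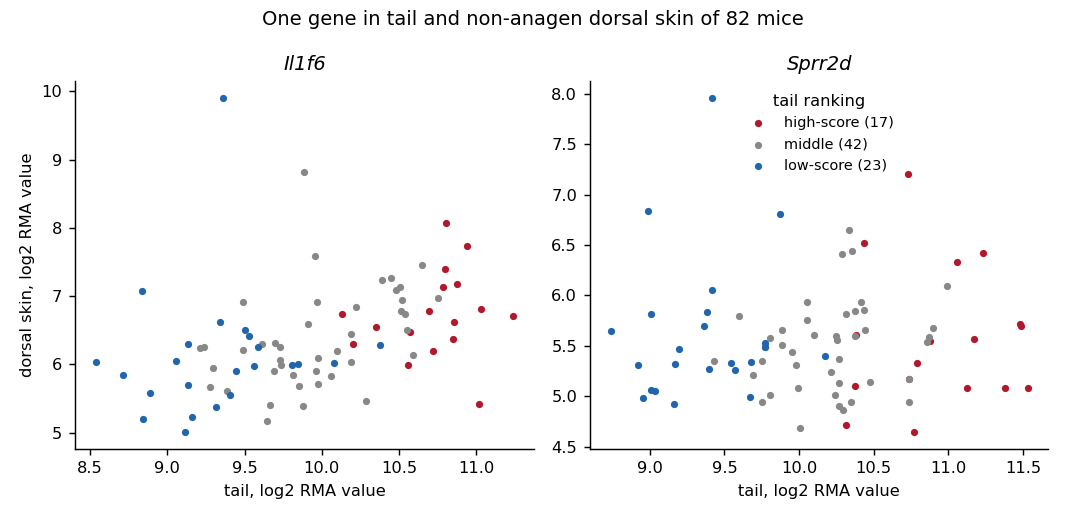
Log2 RMA values of Il1f6 (left) and Sprr2d (right) in the tail (x axis) and in non-anagen dorsal skin (y axis) of the same mouse, for 82 mice coloured by the tail's place in the ranking. The Pearson r is 0.376 for Il1f6 and 0.025 for Sprr2d.

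The female and male tails were set against each other as well. The difference between the group effect in females (13 high-score and 13 low-score tails) and in males (11 and 11) was called for no gene (0.0% of 18816) with limma, and 826 genes had an unadjusted p under 0.05 (4.39%). Within females alone 112 genes were higher and 13 lower, and within males alone 8 were higher and 1 lower. Defb3 was 3.59 higher in females and 3.85 higher in males, and Krt16 was 1.70 and 1.68 higher. Serpinb3c was 2.17 higher in females and 1.14 in males, a gap that did not pass the test (limma adjusted p = 0.999).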

How the data were processed

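RNA of tail and dorsal mouse skin was hybridised to Affymetrix gene arrays. The deposited values are log2 expression made with RMA, per the submitters' processing notes. Its version is not given in the sources used here. Of 35556 probe sets, 21218 named 1 gene in the platform annotation and 1881 named several. For the 1386 genes with several single-gene probe sets, the one with the highest mean was kept, which left 18820 genes. No 2 arrays were identical.

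Tails were ranked by the mean of 4 genes, and the highest and lowest 24 were compared with limma 3.58.1 in R 4.3.3 (lmFit, eBayes). Sex was a covariate in the fits. Batch was constant in the groups and a term in the other fits, and the dorsal and tissue fits also had the dorsal anagen label as a term. The Benjamini-Hochberg adjustment ran over all genes but the ranking genes, except in the dorsal fit, where it ran over all 18820. The 4 ranking genes, the groups and the 41 gene lists were chosen with earlier results of these data known. Genes named in the text were the ranking genes, the 12 largest called differences each way among genes with a mean over 6.56 (the median of gene means) in either group, up to 4 called members of each list (2 where none was called), the 5 largest each way of the other contrasts, and the 10 highest and 5 lowest correlations with the score in the middle tails. Defb14, Camp, Ptgs2, Krt17, Krt5, Krt10, Sprr1a, Sprr2b, Cst3, Cst6, Il1rl2, Il1a, Mki67, Mpo, Elane, Ngp, Ltf, Csf3r, Mmp9, Clec4d and Lce3b were added after their values were seen.

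The mouse number pairs tail and dorsal arrays. A mouse's tail and dorsal deviations had a median correlation of 0.164 in 82 mice, against 0.00 for different mice. Fisher's exact test, permutation tests and motif searches ran in Python 3.11.15 with scipy 1.17.1. The number of arrays limits the precision.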

Additional observations from a re-analysis of the deposited data

Results flagged for a closer look

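The group effect differed between tail and dorsal skin, by its own test, for 22 of the genes named, and in most of them the effect in tail was the larger. The difference of effects (tail minus dorsal, log2) was 3.69 for Defb3, 2.86 for S100a8, 2.45 for Krt6b, 1.88 for S100a9, 1.70 for Krt16, 1.69 for Alox8, 1.62 for Serpinb3c, 1.58 for Wfdc12, 1.5 for Cstdc6, 1.40 for Tmprss11a and 1.35 for Fetub. It was 1.25 for Sprr2e, 1.15 for Klk13, 1.08 for Serpinb3d, 0.74 for Zc3h12a, 0.64 for Sprr2g, 0.54 for Il1rn and 0.48 for Tgm1. It was -0.36 for Lonp2, -0.41 for Zfp101, -0.47 for Phc3 and -0.50 for Ppm1k. Tgm1 was 0.17 higher in high-score tails and had a difference of -0.31 in the dorsal skin of the same mice (unadjusted p = 5.03e-04, limma adjusted p = 0.367). The tails, and not the dorsal arrays, had been ranked, which by itself favours larger effects in tail. Tissue and batch cannot be told apart.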

How the results depend on the processing

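Of the 54 called genes named, none changed sign under the alternatives in which it was fitted (20 at most, of which the one with batch 4 arrays only is the same fit), including 4 chosen after seeing the data (the 2 on hair cycle, the muscle covariate and the set without the 5 arrays least like the median tail). The count of higher genes was 226. It became 345 with all 97 tails in 3 groups, 379 with the score as a number, 392 when ranked without Stfa3, 115 without Sprr2d, 138 without mice in anagen, 112 in females and 8 in males. The count of lower genes was 127. It became 284 after a shift to the same median, 252 with quantile normalization, 229 with the score as a number, 269 with the 32 highest and lowest tails, 39 when ranked without Sprr2d, 13 in females and 1 in males. The tails of 1 sex are fewer; otherwise the cause was not tested. Without the 5 arrays least like the rest, 52 of the 54 were called in the same direction. Fewer of the 54 stayed called in other settings. These were 34 when ranked without Sprr2d, 46 without Il1f6, 40 without mice in anagen, 23 in females and 5 in males. The tissue difference was called for 44 genes, for 53 with mouse as a replicate block, for 40 as a paired difference within each mouse and for 27 without mice in anagen, where Krt16, Sprr2g and the 4 genes of the other sign were lost; Zfp101 was also lost in the paired fit. The dorsal, sex and middle-tail counts stayed at 0 in all their alternatives. The score's Pearson r between tissues was 0.121 to 0.186 in its alternatives, each with an unadjusted permutation p above 0.05, and its Spearman rho 0.161 to 0.244, with unadjusted p = 0.0494 after sex and batch were removed and 0.0168 over all 96 mice. Many of the genes named are dim in dorsal skin, which limits what can be detected there.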
